A study of Mus musculus with 18 samples.

Results

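Adipocytes floated from interscapular brown fat were compared with adipocytes floated from inguinal subcutaneous fat, using the 6 arrays labelled for these fractions among the 18 of the study. There were 3 brown and 3 inguinal adipocyte arrays, chosen by their labels alone. All animals were labelled young adult male mice of strain C57BL/6, and the labels name no transgene, treatment, diet or temperature. The study also profiled epididymal fat and, in each depot, the stromal-vascular fraction (SVF), the cells that sink when collagenase-digested fat is spun, in triplicates described as biological. RNA was measured on 1-colour Agilent arrays, so each value is the brightness of 1 probe, and levels are compared between arrays and never between probes.

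Brown adipocytes hold many small lipid droplets and densely packed mitochondria, and uncoupling protein 1 (Ucp1) in their inner mitochondrial membrane releases the energy of fuel oxidation as heat. Inguinal adipocytes are mostly white fat cells, which store triacylglycerol in a single droplet and secrete hormones such as leptin, and cold or adrenergic stimulation can turn some of them into heat-producing beige cells. The depots also differ in embryonic origin, which leaves position-dependent homeobox and other patterning genes expressed in the adult cells. A floated fraction is a mixture, and in such bulk samples fewer cells of a type and less RNA per cell cannot be told apart.

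A level below is the log2 signal of a gene minus the log2 of the 75th percentile of its array, so that 0 is the brightness of the 75th percentile. The 75th percentile itself lay between 338 and 475 on the brown arrays and between 394 and 1044 on the inguinal ones, and 49.6 to 58.5% of brown and 58.0 to 69.5% of inguinal probes were well above background. The fat cell genes Adipoq (adiponectin, 7.41 to 8.79 over the 6 arrays), Plin1 (the droplet coat protein perilipin 1, 5.77 to 8.21) and Fabp4 (the fat cell fatty acid binding protein, 9.03 to 10.17) were high on all 6. Rank correlations between brown arrays were 0.974 to 0.983 and that between inguinal replicates 1 and 2 was 0.982, whereas inguinal replicate 3 reached only 0.944 and 0.934 with its own group and 0.955 to 0.957 with the brown arrays. Immune cell transcripts were low in inguinal replicate 3, so list counts are given with and without it where they differ, as are single genes whose call it changes. The array labelled inguinal SVF replicate 1 stands apart from the other 17 by Xist signal (4.98, against at most -4.57) and by Ddx3y not well above background, which goes against its male label. It enters the adipocyte comparison through the pooled spread between replicates and the choice of probes. Without it in the fit 1429 genes were higher in brown and 1391 in inguinal adipocytes, against 1216 and 1121 with it. Of the latter 1212 and 1120 kept their call. The brown adipocyte arrays lay on 2 slides, all scanned with one version of the extraction software (10.5.1.1), and the inguinal adipocyte arrays on 3 other slides, all scanned on other days and extracted with another (9.5.3.1). Depot therefore cannot be told apart from slide, scan day or software version in this comparison. Inguinal replicates 1 and 2 were read on another scanner model (median spot background of 80 and 44.5) than inguinal replicate 3 and the brown arrays (20 to 23).

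Of 19217 genes tested, 1216 (6.33%) were higher in brown and 1121 (5.83%) higher in inguinal adipocytes at an adjusted p under 0.05 (limma over all 18 arrays, 6 group means). The median difference over all genes, brown minus inguinal, was 0.15 on the log2 scale. Without inguinal replicate 3 the counts were 2027 (10.5%) and 1594 (8.29%), the median difference was 0.24, and 1101 of the 1216 and 1026 of the 1121 genes kept their call. The levels of the 3 brown and the 3 inguinal arrays did not overlap for 3530 genes higher in brown (18.4%) and 2674 higher in inguinal (13.9%). Among the genes higher in inguinal adipocytes, replicate 3 had the lowest level of the 3 inguinal arrays in 806 (71.9%), against 28.1% of all genes tested. Among those higher in brown adipocytes it had the highest inguinal level in 847 (69.7%), against 53.5% of all genes. The split of the calls was 52.0% higher in brown with 75th percentile scaling, 41.7% with quantile normalization and 64.3% with only probes well above background on all 6 arrays. Leaving out another adipocyte array gave fewer calls, with 341 and 402 without inguinal replicate 1, 571 and 533 without inguinal replicate 2, 539 and 547 without brown replicate 1, 431 and 632 without brown replicate 3, and 982 and 791 without brown replicate 2. With normexp background correction, a model-based subtraction, 360 and 294 genes were called and the median of all genes moved to -0.30. It started from median spot signals on the brown and mean spot signals on the inguinal arrays, a difference that goes with depot. Started from median signals on all arrays, with outlying backgrounds replaced, it gave 722 and 585 genes and a median of 0.20. That alternative was added after the data were seen. The p-values measure the spread between these samples only.

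The scanner model separates inguinal replicates 1 and 2 from the other adipocyte arrays. With it as a block, an alternative added after the data were seen, the comparison rests on the brown arrays against inguinal replicate 3 alone, which is assumed to vary like the other groups. In that fit 14 genes were higher in brown and 54 in inguinal adipocytes, and the median difference over all genes was -0.05. Among the genes described in the next paragraphs, those higher in brown adipocytes that passed were Myl2 (log2 difference 6.94, adjusted p = 0.0191), Dio2 (3.36, adjusted p = 0.0389) and Pank1 (3.55, adjusted p = 0.0402). Hoxc9 (-8.01, adjusted p = 9.75e-05), Tbx1 (-5.86), Hoxc10 (-3.88), Sncg (-4.03), Dpt (-3.69), Thbs2 (-4.71), C4b (-3.42), Cfb (-2.47), Fads3 (-2.73), Vwf (-2.38), Lmod1 (-2.53) and Myc (-1.75) passed in the other direction. Zic1 (6.47, adjusted p = 0.0802) and most others named did not. The list medians in that fit were 1.56 for heat production genes, 1.04 for the citrate cycle, 0.69 for beta-oxidation, -1.20 for extracellular matrix, -1.46 for macrophage genes and -1.03 for mural genes. The part of the scanner in the differences between the depots was not tested beyond these values.

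**Figure D1:**
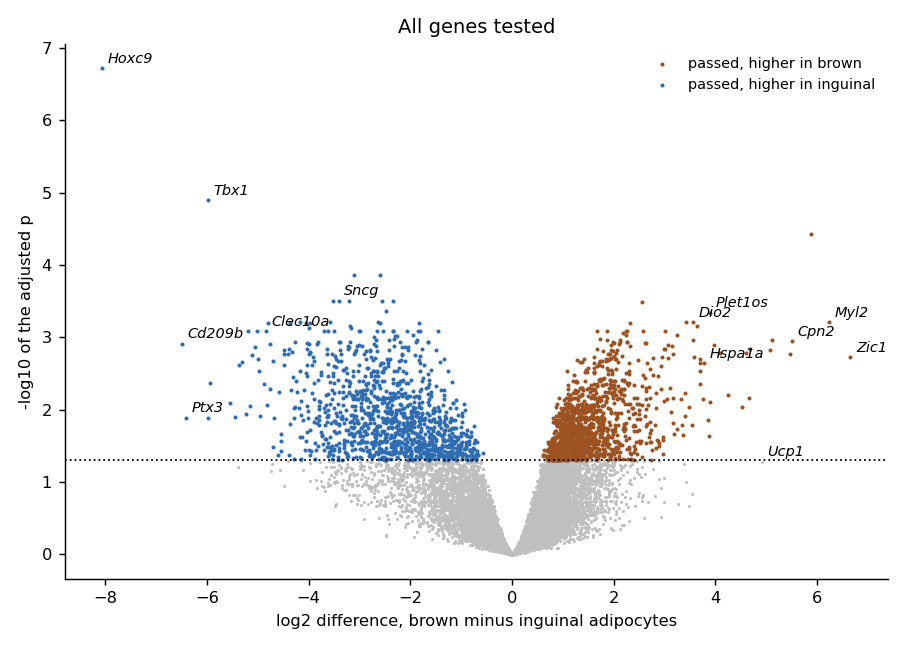
Each point is 1 of the 19217 genes, with the log2 difference (brown minus inguinal adipocytes, n = 3 arrays each) on the x axis and the −log10 of limma's adjusted p on the y axis, and the dotted line marks 0.05. The patterning genes Zic1 (6.66) and Hoxc9 (-8.06) lie at opposite ends, with immune and matrix genes on the inguinal side.

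A few genes of embryonic patterning had large contrasts, although few of their kind passed the test with all arrays in the fit. Of 25 patterning genes outside the Hox clusters, Zic1 rose in brown adipocytes, Tbx1 fell and 23 did not pass (median 0.14), with 2 rising without inguinal replicate 3. These shares were below the 6.33% and 5.83% of all genes called in these directions with all 6 arrays. This did not hold without inguinal SVF replicate 1, where 3 of the 25 rose and 4 fell. In that fit 1429 and 1391 of all 19217 genes did. Zic1, a zinc finger transcription factor of dorsal structures and brown fat, had levels of 0.76, 0.32 and 0.63 in brown replicates 1 to 3, against -4.51, -7.85 and -5.90 in inguinal replicates 1 to 3. Every brown array was above every inguinal array, and no inguinal array had Zic1 signal well above background. The gene was at least 64.9-fold higher in brown adipocytes (adjusted p = 0.00188), where a bound replaces a fold as the dimmer group was set to the lowest signal called well above background. Hoxc9, a homeobox factor of posterior body segments, had -5.71, -6.56 and -6.46 in brown and 1.70, 1.97 and 1.77 in inguinal adipocytes. The inguinal arrays lay within a narrow band and the brown arrays were not well above background, a difference of at least 58.2-fold (adjusted p = 1.9e-07). Tbx1, a T-box factor used as a marker of beige fat cells, had -5.68, -6.65 and -5.71 against -0.18, 0.25 and -0.15, at least 16.3-fold higher in inguinal adipocytes (adjusted p = 1.26e-05). These 3 contrasts stood without inguinal replicate 3 (log2 differences of 6.75 for Zic1, -8.08 for Hoxc9 and -6.05 for Tbx1). That of Zic1 was 1.93 (adjusted p = 0.129) with normexp, and its adjusted p ranged from 1.4e-05 to 0.129 over its alternatives. Of 11 measured genes reported as beige cell markers 1 rose in brown adipocytes, 2 fell (Hoxc9 and Tbx1) and 8 did not pass, with a median of -1.29. Without inguinal replicate 3, 1 rose and 4 fell. The beige markers Tmem26 and Tnfrsf9 did not pass.

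Few Hox genes were called, those higher in brown adipocytes from groups 1 to 5 and those higher in inguinal adipocytes from groups 6 to 13. Over all genes 6.33% were called higher in brown and 5.83% higher in inguinal adipocytes. Of 12 measured genes of paralogue groups 1 to 5, which pattern anterior segments, 2 rose in brown adipocytes, 10 did not pass and the median difference was 0.81. These were Hoxa4 (-0.09, -0.17 and 0.12 in brown, -3.22, -2.75 and -1.91 in inguinal, 5.99-fold, adjusted p = 0.0033) and Hoxa5 (log2 difference 2.22 ± 0.58 SE, adjusted p = 0.0232, from 0.000184 to 0.272 over its alternatives). In this list 3 passed without inguinal replicate 3 and only 1 without brown replicate 1, brown replicate 3 or inguinal replicate 1. With normexp 0 passed, the median was -0.02 and the adjusted p of Hoxa4 was 0.226. Within 1 scanner model the median of the list was 0.05. Of 15 measured genes of groups 6 to 13, 3 were higher in inguinal adipocytes and 12 did not pass, with a median of -0.55. The 3 were Hoxc9, Hoxa10 (at least 7.30-fold, adjusted p = 0.00122) and Hoxc10 (at least 4.09-fold, adjusted p = 0.000818), and none of them was well above background on a brown array. The count was 3 whichever adipocyte array was left out. Hoxc8 (log2 difference -1.47 ± 0.62, adjusted p = 0.133), the T-box gene Tbx15 (-1.84 ± 1.03, adjusted p = 0.262) and the LIM homeobox gene Lhx8 (-0.17 ± 1.06, adjusted p = 0.936) did not pass. Lhx8, often used as a brown fat marker, had -1.20 and -0.95 in inguinal replicates 1 and 2 and 1.54 in replicate 3, against -0.69 to -0.15 in brown adipocytes. Its difference was 0.70 without inguinal replicate 3.

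In the list of heat production genes 23 of 27 differences were above 0, and fewer genes passed the test than differed without overlap. Of these 27 measured genes 12 rose in brown adipocytes, 0 fell and 15 did not pass, with a median difference of 2.19. The arrays did not overlap for 18 genes higher in brown and 1 lower. Over all genes 6.33% were called higher in brown, and 18.4% and 13.9% did not overlap in the same directions. Without inguinal replicate 3, 15 rose, the median being 2.54, and without brown replicate 1, brown replicate 3 or inguinal replicate 1 the count was 8. Dio2, the deiodinase that makes active thyroid hormone inside the cell, had 0.88, 0.08 and 0.92 in brown against -3.25, -2.83 and -2.73 in inguinal adipocytes. Its groups were well apart, an 11.8-fold difference (log2 3.56 ± 0.43, adjusted p = 0.000613). Gk, glycerol kinase, which lets a cell reuse the glycerol freed by lipolysis, had 1.24, 0.44 and 0.54 against -3.45, -3.64 and -1.80. Inguinal replicate 3 was nearest the brown arrays, and the log2 difference of 3.70 ± 0.60 (adjusted p = 0.00201) was 4.28 without it. Dio2 kept its call under every alternative but normexp (adjusted p = 0.0813), and Gk lost its call with normexp (0.0646) and within 1 scanner model (0.151).

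Fuel handling genes of the same list followed this pattern. Fabp3, the heart-type fatty acid binding protein, had 6.10, 5.13 and 6.72 in brown and 0.95, 0.80 and 2.61 in inguinal adipocytes. The groups did not overlap, and the difference was 23.1-fold (log2 4.53 ± 0.98, adjusted p = 0.00924), a call kept under 21 of 22 alternatives and lost within 1 scanner model (adjusted p = 0.277). Pank1, a pantothenate kinase of coenzyme A synthesis, had 1.89, 1.17 and 2.56 against -2.29, -1.34 and -1.67 (3.64 ± 0.46, adjusted p = 0.000685). The acyl-CoA thioesterase Acot11 (3.16 ± 0.50, adjusted p = 0.00169) and the proton channel Otop1 (2.73 ± 0.68, adjusted p = 0.0188) rose as well. Cox7a1, the heart and muscle isoform of a cytochrome c oxidase subunit, had 7.15, 6.68 and 8.48 against 4.32, 3.77 and 5.33 (7.80-fold, adjusted p = 0.0266). Cpt1b, the muscle isoform of the enzyme that admits long-chain fatty acids to mitochondria, had 4.59, 3.95 and 4.84 against 1.26, 1.23 and 2.98 (6.23-fold, adjusted p = 0.0291). The last 2 genes kept their call in only 2 of the 6 fits that left out 1 adipocyte array, with adjusted p up to 0.116 for Cox7a1 and 0.126 for Cpt1b.

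Ucp1 itself had 8.11, 7.24 and 7.89 in brown adipocytes, against 1.99, 2.18 and 4.34 in inguinal adipocytes. All brown arrays were above all inguinal arrays, and inguinal replicate 3 was the highest of its group. The difference was 4.91 ± 1.56 on the log2 scale and did not pass the test (adjusted p = 0.0524). It passed without inguinal replicate 3 (5.66, adjusted p = 0.0368), and over its alternatives adjusted p ran from 0.0134 to 0.519, the latter within 1 scanner model. In the SVF the same difference was 9.60. Cidea, a droplet protein of brown fat, had 9.54, 9.04 and 9.61 against 7.46, 7.15 and 7.84 without overlap, and did not pass (1.91 ± 1.01, adjusted p = 0.233), nor did Cox8b (2.19 ± 0.72, adjusted p = 0.0613). With the spread taken only from the 6 adipocyte arrays, Ucp1 (adjusted p = 0.0154), Cidea (0.0217) and Cox8b (0.0381) passed, as did Cox8b without inguinal replicate 3 (0.0423). The coactivator Ppargc1a had 2.45, 1.89 and 0.49 against -0.18, -1.19 and -0.09 (2.09 ± 0.81, adjusted p = 0.104), and the zinc finger regulator Prdm16 overlapped between depots (0.74 ± 0.35, adjusted p = 0.175). Elovl3, a fatty acid elongase, had -2.07, -1.49 and -2.95 against -2.95, -3.07 and -0.38, a difference of -0.04 ± 1.62 (adjusted p = 0.991).

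Other genes with large differences were of varied function. Cpn2, the regulatory subunit of carboxypeptidase N, had 0.10, -0.53 and -0.35 in brown and -6.29, -6.67 and -4.32 in inguinal adipocytes, where only 1 array was well above background (log2 5.50 ± 0.78, adjusted p = 0.00112). Kng1, kininogen 1, the precursor of bradykinin, which the carboxypeptidase N complex inactivates, had -0.04, 0.28 and 1.06 against -4.95, -5.26 and -4.86 (5.46 ± 0.86, adjusted p = 0.00169). Both groups were tight and apart for Kng1, whose probe cannot be told from a near-identical copy and was well above background on 2 inguinal arrays. The unconventional myosins Myo5b (4.24 ± 0.85, adjusted p = 0.00629) and Myo5c (3.98 ± 0.59, adjusted p = 0.00128), the kinase gene Sgk2 (4.60 ± 0.72, adjusted p = 0.00166) and Mmd2 (4.68 ± 0.71, adjusted p = 0.00143) rose in brown adipocytes too. Of these, Myo5b, Myo5c and Sgk2 were well above background on 2 inguinal arrays and Mmd2 on 1, so that the inguinal side of these differences is in part background signal. Rnf182 was at least 11.3-fold higher there (adjusted p = 0.00148). Except Fabp3 and Hspa1a, the 12 genes with the largest differences measured in both groups lost their call with normexp, where their log2 differences were -0.17 (Cabcoco1) to 1.93 (Kng1).

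**Figure D2:**
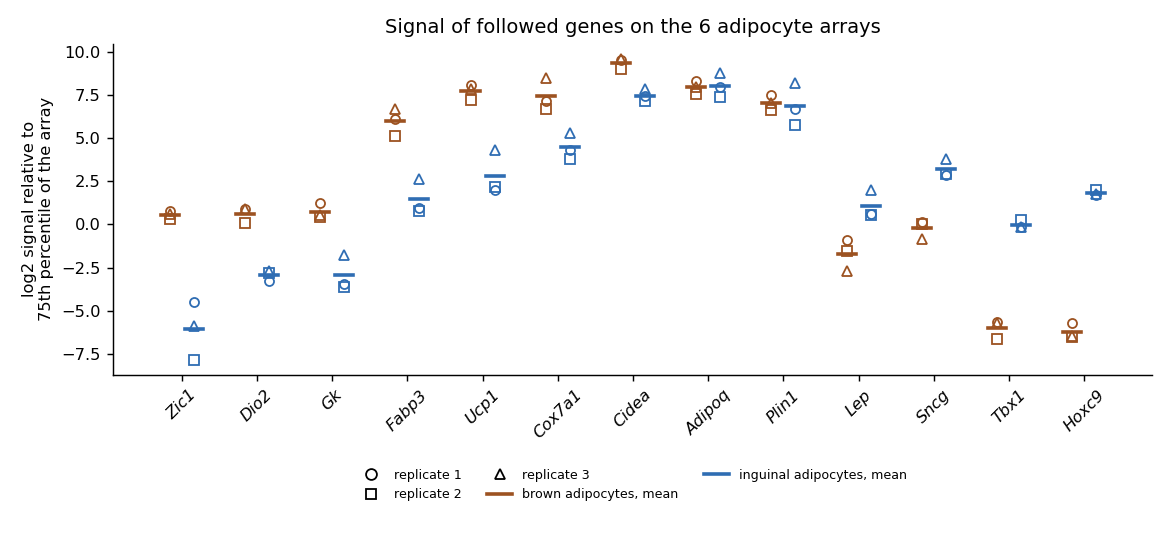
The level (log2 signal over the array's 75th percentile) of 13 genes is plotted on each adipocyte array, brown fat in brown and inguinal fat in blue, with circles, squares and triangles for replicates 1, 2 and 3 and a bar at the group mean. Inguinal replicate 3 lies nearest the brown arrays for Gk, Fabp3 and Ucp1, whereas the groups of Zic1, Hoxc9 and Tbx1 are far apart and those of Adipoq and Plin1 overlap.

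The respiratory chain pumps protons across the inner mitochondrial membrane through complexes I, III and IV, and ATP synthase uses the gradient. Of 81 measured nuclear genes of complexes I to IV and ATP synthase, 58 rose in brown adipocytes, 0 fell and 23 did not pass, against the 6.33% of all genes called in this direction. The median difference was 1.33 and 80 of the 81 differences were above 0. Without inguinal replicate 3 the count was 70. It depended on single arrays, being 22 without inguinal replicate 1, 31 without inguinal replicate 2, 28 without brown replicate 3, 35 without brown replicate 1 and 64 without brown replicate 2. It was 15 when only the 6 adipocyte arrays were used and 45 with normexp, with 0 falling in each of these. Within 1 scanner model 0 of the 81 passed and the median was 0.79. Leaving out inguinal replicate 1 or 2 or brown replicate 1 or 3 also lowered the counts of single complexes by over 1.5 times in most cases, those of complex I given below falling to 8, 12, 15 and 10.

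All 4 subunits of complex II, which is also a citrate cycle enzyme, rose (median 1.80). Its flavoprotein subunit Sdha had 5.08, 4.47 and 5.51 in brown and 2.71, 2.91 and 3.65 in inguinal adipocytes, 3.81-fold apart without overlap (adjusted p = 0.00196). In complex I 26 of 36 genes rose (median 1.29), led by the acyl carrier protein Ndufab1, with 6.13, 5.77 and 6.77 against 3.83, 4.17 and 4.63 (4.04-fold, adjusted p = 0.00178). In complex III 7 of 9 rose (median 1.53), among them the Rieske iron-sulfur protein Uqcrfs1 (3.83-fold, adjusted p = 0.00128). In complex IV 10 of 16 rose (median 1.51), with Cox6b1 (3.68-fold, adjusted p = 0.00323) and Cox7a2 (3.62-fold, adjusted p = 0.00215). In ATP synthase 11 of 16 rose (median 1.23), and 1 member had a difference below 0 that did not pass. Without inguinal replicate 3 the counts were 32 for complex I, 4 for complex II, 9 for complex III, 13 for complex IV and 12 for ATP synthase.

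Promoters are shown for chain genes that rose and hold a binding motif of a known regulator of these genes, to place letters beside values. NRF-1 and the estrogen-related receptors (ERRs) are transcription factors known to drive respiratory chain genes. The windows run from 250 bases before to 50 after the start of transcription, 5′ to 3′ on the gene's strand, from RefSeq on GRCm38.p6, and the capitals mark GCGCA followed by its reverse complement TGCGC (NRF-1) in the first 3 and AAGGTCA (an ERR half-site) in Sdhd, where it lies on the opposite strand and reads TGACCTT. Atp5k encodes a small subunit of ATP synthase, Uqcrc1 a core protein of complex III, Ndufa11 an accessory subunit of complex I and Sdhd a membrane anchor of complex II. Their windows are chr5:108434350-108434649 on the minus strand, chr9:108936398-108936697 on the plus strand, chr17:56717512-56717811 on the plus strand and chr9:50603800-50604099 on the minus strand.
Atp5k: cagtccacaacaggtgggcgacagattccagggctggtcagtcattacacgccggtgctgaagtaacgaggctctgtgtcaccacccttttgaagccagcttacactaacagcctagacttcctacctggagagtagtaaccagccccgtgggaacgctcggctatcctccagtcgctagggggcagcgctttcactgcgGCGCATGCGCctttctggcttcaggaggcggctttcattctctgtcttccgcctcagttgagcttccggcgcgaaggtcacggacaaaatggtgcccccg
Uqcrc1: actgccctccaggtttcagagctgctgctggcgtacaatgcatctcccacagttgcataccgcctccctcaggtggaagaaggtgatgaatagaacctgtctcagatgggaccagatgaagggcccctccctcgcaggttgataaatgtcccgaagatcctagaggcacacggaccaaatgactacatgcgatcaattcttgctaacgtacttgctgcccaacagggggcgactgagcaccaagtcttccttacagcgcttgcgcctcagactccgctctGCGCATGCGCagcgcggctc
Ndufa11: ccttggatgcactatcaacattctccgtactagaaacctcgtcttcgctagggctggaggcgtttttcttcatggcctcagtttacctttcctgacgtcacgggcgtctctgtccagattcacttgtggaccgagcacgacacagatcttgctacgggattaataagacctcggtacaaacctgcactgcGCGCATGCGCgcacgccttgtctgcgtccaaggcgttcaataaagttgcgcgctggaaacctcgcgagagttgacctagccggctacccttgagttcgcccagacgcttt
Sdhd: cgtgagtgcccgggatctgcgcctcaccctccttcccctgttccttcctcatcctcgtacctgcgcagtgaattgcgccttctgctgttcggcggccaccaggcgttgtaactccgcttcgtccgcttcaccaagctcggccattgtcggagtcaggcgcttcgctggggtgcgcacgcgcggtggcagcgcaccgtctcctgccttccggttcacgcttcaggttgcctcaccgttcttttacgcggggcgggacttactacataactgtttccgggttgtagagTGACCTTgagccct

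The log2 differences of these 4 genes were 1.52 for Atp5k (adjusted p = 0.0213), 1.53 for Uqcrc1 (0.0203), 1.30 for Ndufa11 (0.0232) and 1.71 for Sdhd (0.00383). The first 3 lost their call without inguinal replicate 1 or 2 or brown replicate 1 or 3, whereas Sdhd kept it under 21 of 22 alternatives and lost it within 1 scanner model (adjusted p = 0.197). In the windows shown the motif begins at base 201 of Atp5k, 281 of Uqcrc1, 191 of Ndufa11 and 287 of Sdhd. Windows were found for 68 of the 83 chain genes. The 10 letters of the NRF-1 motif, the same on both strands, were in 5 of their 73 windows (6.85%) and in 319 of all 32851 promoter windows (0.971%). AAGGTCA, also on both strands, was in 8 of 73 (11.0%), against 4.72% of all. Of the 50 genes with a window that rose, 4 held the first motif and 5 the second, and of the 18 that did not pass 1 and 3. Atp5k holds both, the second at base 274. A match is a description of the letters and not of bound factor.

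Enzymes that feed the chain showed the same direction. In the citrate cycle 18 of 19 genes rose (median 1.70), also 18 without inguinal replicate 3. Suclg1, a subunit of succinyl-CoA ligase, had 6.59, 6.20 and 7.37 in brown and 3.89, 4.22 and 5.16 in inguinal adipocytes, 4.92-fold apart (adjusted p = 0.00229). In mitochondrial beta-oxidation, the stepwise shortening of fatty acids, 16 of 24 rose (median 1.44, 22 without inguinal replicate 3). Acaa2, the thiolase of its last step, had 8.41, 7.75 and 8.82 against 5.48, 5.51 and 6.28, a difference of 5.94-fold (adjusted p = 0.000818). Etfdh, which passes its electrons to ubiquinone, rose 4.34-fold (adjusted p = 0.00115). Of 72 genes listed as mitochondrial ribosomal proteins 28 rose (median 0.85, 46 without inguinal replicate 3). The largest difference of that list was that of Mrps36 (4.80-fold, adjusted p = 0.00115), whose place in it rests on its symbol alone. Of 31 import and dynamics genes 11 rose, with the inner membrane fusion protein Opa1 3.05-fold higher (adjusted p = 0.00188). None of the genes of these 4 lists fell. In the citrate cycle 12 to 18 genes passed whichever adipocyte array was left out. The other counts moved more, and without inguinal replicate 1, inguinal replicate 2, brown replicate 1 and brown replicate 3 they were 7, 8, 8 and 8 for beta-oxidation, 9, 12, 10 and 10 for ribosomal proteins and 2, 3, 3 and 2 for import and dynamics. The last list had 18 without inguinal replicate 3. Of 36 mitochondrial carriers 5 rose (10 without inguinal replicate 3, 2 without inguinal replicate 1, 3 without brown replicate 1 or 3), among them Slc25a51, the NAD carrier (4.13-fold, adjusted p = 0.00166). Of 30 peroxisomal genes 4 rose (13 without inguinal replicate 3, 0 without inguinal replicate 1 or 2 or brown replicate 1 or 3), with the half-transporter Abcd3 2.32-fold higher (adjusted p = 0.0317).

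Genes of sugar, ketone and lipid metabolism gave calls in some lists and none in others. Over all genes tested 6.33% were called higher in brown and 5.83% higher in inguinal adipocytes. Of 32 genes of glucose uptake and glycolysis 9 rose and 0 fell (median 0.90), and Ldhb, the lactate dehydrogenase subunit of oxidative tissues, had 7.04, 5.98 and 7.26 against 4.02, 3.80 and 4.83 (5.84-fold, adjusted p = 0.00462). The glycolysis count was 14 without inguinal replicate 3, 2 without inguinal replicate 1 and 3 without inguinal replicate 2, brown replicate 1 or brown replicate 3. Of 5 ketone body genes, Oxct1 (2.04-fold, adjusted p = 0.022), which uses ketone bodies, and the thiolase Acat1 (2.47-fold, adjusted p = 0.0279) were higher in brown adipocytes. Bdh1, a dehydrogenase that interconverts ketone bodies, was higher in inguinal adipocytes (at least 8.67-fold, adjusted p = 0.00159). The calls of Oxct1 and Acat1 were lost without inguinal replicate 1 or 2 or brown replicate 1 or 3. Among 22 genes of fatty acid synthesis and elongation Acly, which makes cytosolic acetyl-CoA, rose (3.05-fold, adjusted p = 0.0276), Fads3 fell (3.66-fold, adjusted p = 0.0121) and 20 did not pass. The shares called in this list were near those of all genes. Of 18 lipolysis and droplet genes 0 passed in either direction (median 0.17, near the 0.15 of all genes). In that list 2 passed without inguinal replicate 3, both higher in brown adipocytes.

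**Figure D3:**
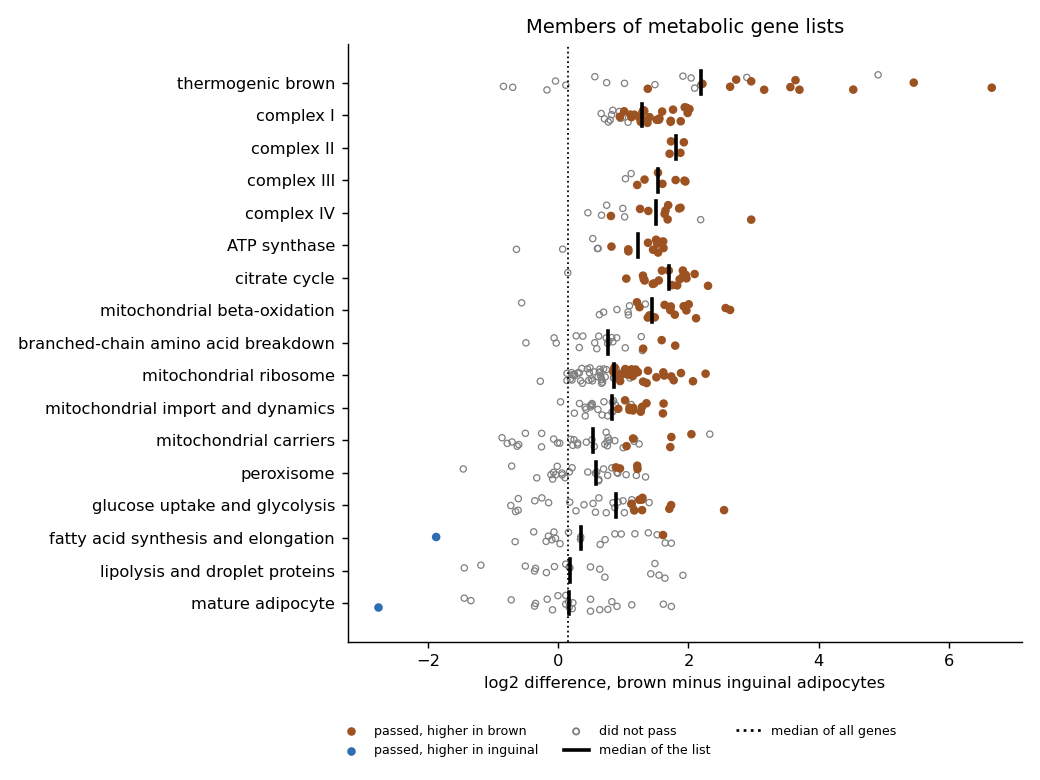
Each row is a list and each point the log2 difference (brown minus inguinal adipocytes) of 1 of its genes, filled where limma's adjusted p was under 0.05 and open where not, with a black bar at the list's median and a dotted line at the median of all genes (0.15). The citrate cycle (1.70) and complex II (1.80) medians lie far to the right, the lipolysis median (0.17) at the dotted line.

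Among transcriptional regulators of oxidation and brown fat, 3 of 33 rose, 2 fell and 28 did not pass (median 0.29), shares near the 6.33% and 5.83% of all genes called in these directions. Ppara, the nuclear receptor that induces fatty acid oxidation, had 3.82, 3.41 and 4.02 in brown and 0.64, -0.02 and 1.34 in inguinal adipocytes, 8.57-fold apart (adjusted p = 0.00498). Ppargc1b, a coactivator of mitochondrial genes, had 3.27, 3.61 and 3.42 against 1.65, 0.57 and 1.96 (4.12-fold, adjusted p = 0.00271), and Esrra, which encodes ERR alpha, was 3.07-fold higher (adjusted p = 0.00688). The groups of these genes did not overlap. Foxc2, a forkhead factor, had a level in inguinal adipocytes at least 2.32-fold higher (adjusted p = 0.000818), and that of Nrip1, a corepressor of oxidative genes, was 2.09-fold higher (adjusted p = 0.0252), a call lost without inguinal replicate 3 (log2 difference -0.91), where 4 genes of the list rose and 1 fell. Without inguinal replicate 1 or 2 or brown replicate 3 the number falling was also 1.

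Noradrenaline switches on heat production through beta receptors, and alpha-2 receptors oppose it in fat cells. Adrb1, the beta-1 receptor, had 1.87, 0.62 and 1.25 in brown and -1.76, -1.59 and -0.39 in inguinal adipocytes (5.64-fold, adjusted p = 0.00837). Adra2a, an alpha-2 receptor, had -5.79, -6.54 and -3.43 against -0.86, -0.61 and -2.17, 16.4-fold higher in inguinal adipocytes (adjusted p = 0.00143), with 1 brown array well above background. The alpha-1 receptor Adra1b, also well above background on 1 brown array, was 11.6-fold higher there (adjusted p = 0.0017), although another of its probes gave a log2 difference of 0.61 (adjusted p = 0.474). Adrb3, the main beta receptor of mouse fat cells, had -2.14, -2.47 and -2.75 against -3.15, -3.65 and -0.92, so that inguinal replicate 3 was above the brown arrays and the other inguinal replicates below them (0.12 ± 0.61, adjusted p = 0.923). Of the 28 adrenergic and related signalling genes 2 rose, a share near the 6.33% of all genes, and 3 fell, against 5.83% of all genes. In this list 4 rose without inguinal replicate 3 and 1 without inguinal replicate 1.

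Few general fat cell genes passed the test, at shares near those of all genes. Over all genes 6.33% were called higher in brown and 5.83% higher in inguinal adipocytes. Of 24 measured mature adipocyte genes 0 rose, 1 fell (Lep) and 23 did not pass, with a median of 0.16. Without inguinal replicate 3, 1 rose, 0 fell and the median was 0.61, with array weights 6 rose (median 0.61), and within 1 scanner model 0 passed (median -0.60). Adipoq had 8.34, 7.58 and 8.01 in brown and 7.98, 7.41 and 8.79 in inguinal adipocytes, a difference of -0.09 ± 0.84 (adjusted p = 0.96). The overlap was complete, as for Plin1 (0.17 ± 0.78, adjusted p = 0.913) and the adipogenic receptor Pparg (0.50 ± 0.47, adjusted p = 0.536). Genes reported to be enriched in white fat cells were lower in brown adipocytes for 8 of 19 genes, with 0 higher and a median of -1.34 (5 lower and -0.97 without inguinal replicate 3, and 4 or 5 lower without any other adipocyte array). Leptin, Lep, had -0.90, -1.54 and -2.70 against 0.62, 0.53 and 2.00, highest in inguinal replicate 3 (6.78-fold, adjusted p = 0.0456), and this call was lost whichever adipocyte array was left out, with adjusted p up to 0.174. Sncg, gamma-synuclein, had 0.13, 0.05 and -0.82 against 2.86, 2.91 and 3.82 (10.6-fold, adjusted p = 0.000311). Mest, an imprinted gene of expanding fat cells, had -0.79, -0.04 and -0.37 against 2.31, 2.24 and 2.22 (log2 difference -2.66 ± 0.47, adjusted p = 0.00299), and Dpt, the matrix protein dermatopontin, was 12.3-fold higher in inguinal adipocytes (adjusted p = 0.000818).

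Secreted products passed the test in both directions, those higher in brown adipocytes at a share near the 6.33% of all genes. Among 24 adipokine and hormone genes 2 rose and 6 fell in brown adipocytes (median -0.95, 5 falling without inguinal replicate 3, 2 without brown replicate 3 and 3 without any other adipocyte array). The BMP antagonist Chrdl1 was 7.10-fold higher in inguinal adipocytes (adjusted p = 0.00266). Pm20d1, which makes N-acyl amino acids, was 7.89-fold higher in brown adipocytes (adjusted p = 0.00744), with signal well above background on 2 inguinal arrays. Of 25 plasma protein and acute phase genes 2 rose, Cpn2 and Kng1, and 5 fell (median -0.28, 4 falling without inguinal replicate 3, 3 falling without inguinal replicate 1 or 2 or brown replicate 1 or 3). Complement genes were among those that fell. C2 had 2.36, 2.62 and 1.96 in brown and 5.13, 4.87 and 5.25 in inguinal adipocytes (6.82-fold, adjusted p = 0.00313), C4b was 6.57-fold (adjusted p = 0.00383) and factor B, Cfb, 4.45-fold higher in inguinal adipocytes (adjusted p = 0.00173). These complement genes were as high or higher in inguinal replicate 3 as in replicates 1 and 2, unlike the immune cell genes below.

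Many immune cell transcripts were higher in inguinal adipocytes, and inguinal replicate 3 had less of most of them than replicates 1 and 2. Over 6 lists of macrophage, T and NK cell, B cell, antigen presenting, neutrophil and mast cell genes, 29 of 68 measured genes were higher in inguinal and 0 higher in brown adipocytes, against the 5.83% of all genes called in this direction. Inguinal replicate 3 was the lowest of the 3 inguinal arrays for 61 of the 68. It was set apart because its immune and stromal transcripts were low, so this rank follows from that choice. So do calls gained without it, here and in the macrophage, lymphocyte, class II, chemokine, matrix and progenitor lists below. The count was 46 without inguinal replicate 3, 10 without inguinal replicate 1, 15 without inguinal replicate 2, 14 without brown replicate 1, 17 without brown replicate 3 and 10 with normexp. Within 1 scanner model it was 0 (median -0.88). The part that admixed cells have in other differences between the depots was not tested.

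Macrophage genes gave 12 lower of 17 in brown adipocytes, with a median of -3.12 (16 without inguinal replicate 3, 7 without inguinal replicate 1 or brown replicate 1). The summed linear signal of the list, relative to the 75th percentile, was 10.8, 55.0 and 18.4 on the brown arrays and 330.3, 241.7 and 48.0 on the inguinal arrays. Brown replicate 2 was thus above inguinal replicate 3. Clec10a, a lectin of resident macrophages, had -0.89, -1.33 and -0.70 in brown and 4.75, 4.71 and 2.14 in inguinal adipocytes (28.6-fold, adjusted p = 0.000818). The scavenger receptor Cd163 was 15.9-fold higher in inguinal adipocytes (adjusted p = 0.00122), and Lyve1, a hyaluronan receptor, at least 9.50-fold (adjusted p = 0.00314). Cd209b, a lectin of macrophage subsets, was well above background on all 3 inguinal arrays and none of the brown ones, a difference of at least 49.4-fold (adjusted p = 0.00122).

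Lymphocyte genes followed replicates 1 and 2. Of 15 T and NK cell genes 7 were higher in inguinal adipocytes (median -3.27, 12 without inguinal replicate 3, 1 without inguinal replicate 1, 2 without brown replicate 1 and 3 without any other adipocyte array), and their summed signal was 0.926, 0.965 and 1.22 on the brown arrays and 37.1, 33.1 and 1.95 on the inguinal ones. The T cell kinase Lck had -4.01, -3.49 and -3.38 in brown and 2.70, 2.43 and -2.35 in inguinal adipocytes (adjusted p = 0.0216), with 2 brown arrays well above background. Inguinal replicate 3 was near the brown arrays and far below the other inguinal replicates. Of 9 B cell genes 0 passed, although all 9 differences were below 0, and inguinal replicate 3 had the level of brown adipocytes (Cd79b with 4.14, 3.94 and -1.37 against -0.39, -1.60 and -1.20, adjusted p = 0.126). Without that array 3 passed, and the difference of Cd79b was -5.10 (adjusted p = 0.00804). Of 11 class II and dendritic cell genes 6 were higher in inguinal adipocytes (9 without inguinal replicate 3, 0 without inguinal replicate 1, 2 without inguinal replicate 2 or brown replicate 1, 3 without brown replicate 2 or 3), H2-Ab1 with 6.23, 5.76 and 3.07 against 0.95, 1.48 and 1.67 (12.6-fold, adjusted p = 0.00864). The mast cell proteases Cma1 (34.5-fold, adjusted p = 0.00172, well above background on 2 brown arrays) and Mcpt4 (at least 25.8-fold, adjusted p = 0.0022) were higher there as well.

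Chemokines were among the genes higher in inguinal adipocytes. Of 21 cytokine and chemokine genes 7 were higher there and 0 lower (median -3.00, 15 without inguinal replicate 3, 2 without inguinal replicate 1, 4 without inguinal replicate 2, 11 without inguinal SVF replicate 1). The monocyte attractant Ccl7 had 3.24, 3.34 and -0.43 in inguinal and -4.87, -2.64 and -4.13 in brown adipocytes (61.1-fold, adjusted p = 0.00431). Ccl8 (27.2-fold, adjusted p = 0.00514) and Ccl2 (31.2-fold, adjusted p = 0.012) showed the same order of replicates. The pentraxin Ptx3 was 85.0-fold higher (3.87, 3.94 and 1.46 against -5.37, -0.88 and -3.70, adjusted p = 0.0129). The chemokine scavenger Ackr2 was 31.6-fold higher (adjusted p = 0.00292) and Retnla, a product of alternatively activated macrophages, 31.9-fold (adjusted p = 0.00201). Ccl7, Ccl8, Ptx3 and Ackr2 were well above background on 2 of the brown arrays. Ccl21c, which shares sequence with other Ccl21 genes, had 5.03, 4.50 and -1.38 against -2.88, -3.43 and -2.19, a difference that rests on inguinal replicates 1 and 2 (adjusted p = 0.00813).

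Matrix and progenitor genes were also higher in inguinal adipocytes in part. Of 34 extracellular matrix genes 21 were higher in inguinal adipocytes and 0 higher in brown (median -2.08, 25 without inguinal replicate 3, 8 without inguinal replicate 1, 10 without inguinal replicate 2, 11 without brown replicate 1 and 12 without brown replicate 3). The stromelysin Mmp3 had -1.77, -3.04 and -1.91 in brown and 3.09, 3.29 and 0.34 in inguinal adipocytes (22.3-fold, adjusted p = 0.00243). Thrombospondin 2, Thbs2, had -1.89, -1.38 and -2.38 against 1.31, 1.12 and 2.82 (12.4-fold, adjusted p = 0.00171), with replicate 3 the highest. Of 21 progenitor and fibroblast genes 12 were higher in inguinal adipocytes (13 without inguinal replicate 3, 2 without inguinal replicate 1, 5 without inguinal replicate 2), among them Thy1 (16.3-fold, adjusted p = 0.00345), Dpp4, a surface marker of early progenitors (29.3-fold, adjusted p = 0.00436, against a brown group with 1 array well above background), and Pdgfra (5.66-fold, adjusted p = 0.0146). Dlk1, an inhibitor of fat cell formation, was the 1 higher in brown adipocytes (3.90-fold, adjusted p = 0.0397), a call lost whichever adipocyte array was left out (adjusted p up to 0.141). The inguinal level of Has1, a hyaluronan synthase seen on none of the brown arrays, was higher by at least 21.3-fold (adjusted p = 0.0129).

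**Figure D4:**
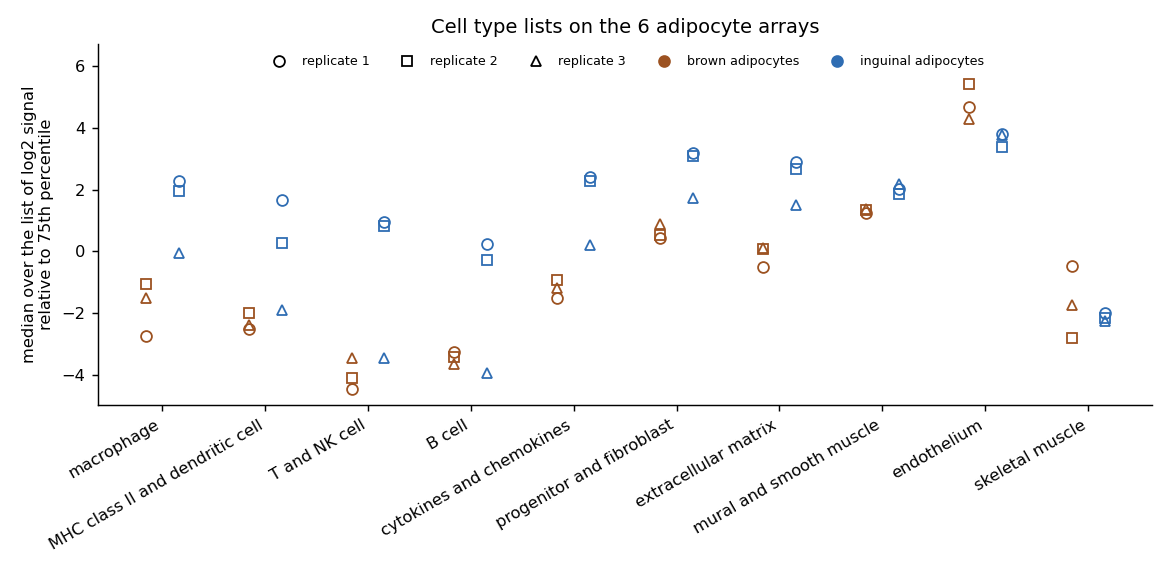
For 10 cell type and stromal lists the median level of the list's genes (log2 signal over the array's 75th percentile) is plotted on each adipocyte array, brown fat in brown and inguinal fat in blue, with circles, squares and triangles for replicates 1 to 3. For T and NK cell genes inguinal replicate 3 (-3.46) lies with the brown arrays (-4.47 to -3.45) and apart from inguinal replicates 1 and 2 (0.95 and 0.83), whereas for mural genes the 3 inguinal arrays lie together (1.87 to 2.18).

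Contractile genes of vessel walls did not depend on inguinal replicate 3. Of 12 mural and smooth muscle genes 5 were higher in inguinal adipocytes, and leaving out any 1 adipocyte array gave 5 or 6. Tagln, which encodes the actin-binding protein transgelin, had 2.77, 1.88 and 2.72 in brown and 5.99, 5.35 and 5.04 in inguinal adipocytes (8.04-fold, adjusted p = 0.000818). Acta2, smooth muscle actin, was 8.22-fold higher (adjusted p = 0.00132), although a dimmer probe of it gave 1.34 (adjusted p = 0.156), and Lmod1 was 6.18-fold higher (adjusted p = 0.000613). Of 15 endothelial genes 3 rose in brown adipocytes, the receptors Tie1 (3.20-fold, adjusted p = 0.00788) and Flt1 (2.76-fold, adjusted p = 0.00882) and the sialomucin Emcn (adjusted p = 0.0426), while Vwf, the clotting factor carrier of larger vessels, was 4.90-fold higher in inguinal adipocytes (adjusted p = 0.000965). The median of the list was 0.91, and 4 rose without inguinal replicate 3.

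Few skeletal muscle genes passed, and those lower in brown adipocytes at a share near the 5.83% of all genes. Of 25 skeletal muscle genes 4 rose, against 6.33% of all genes, 2 fell and 19 did not pass (median 0.16). Without inguinal replicate 3, 5 rose, and 2 did without inguinal replicate 1 or 2 or brown replicate 1 or 3. Of all 19217 genes 341, 571, 539 and 431 were higher in brown adipocytes in the latter fits, in that order. Myl2, a slow and cardiac myosin light chain, had 0.49, -2.05 and -0.71 in brown adipocytes and no signal well above background in inguinal ones, at least 26.5-fold lower there (adjusted p = 0.000613). The oxygen store myoglobin, Mb, was 10.2-fold higher in brown adipocytes (adjusted p = 0.0225). The summed signal of the skeletal muscle list was 42.7, 17.0 and 32.8 on the brown and 25.7 to 30.4 on the inguinal arrays, and the skeletal actin Acta1 overlapped (-0.22 ± 0.93, adjusted p = 0.903). The part of muscle in these differences was not tested.

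Stress and division genes also differed in places. Of all genes 6.33% were called higher in brown and 5.83% higher in inguinal adipocytes. Of 18 heat shock genes 4 rose in brown adipocytes and 0 fell, with 5 rising without inguinal replicate 3 and 2 without inguinal replicate 1 or 2 or brown replicate 1 or 3. Hspa1a, the inducible chaperone, which has a near-identical copy, had 7.70, 8.28 and 8.16 in brown and 4.03, 3.78 and 5.00 in inguinal adipocytes, 13.7-fold apart (adjusted p = 0.00229). The mitochondrial chaperonins Hspe1 (3.07-fold, adjusted p = 0.0051) and Hspd1 (2.13-fold, adjusted p = 0.0222) and the small chaperone Hspb1 (3.15-fold, adjusted p = 0.0379) were the others. Of 24 immediate early genes, induced within minutes of stimulation, 1 rose, 3 fell and 20 did not pass (median -0.12, 1 falling without inguinal replicate 1 or 2 or brown replicate 1 or 3). The 1 that rose, a share below the 6.33% of all genes, was Nr4a3. It was not well above background on an inguinal array, and with normexp its log2 difference was -0.52. The growth regulator Myc had 0.82, 1.10 and 0.87 against 3.79, 4.08 and 2.68 (6.01-fold higher in inguinal adipocytes, adjusted p = 0.00063). Of 21 cell cycle genes 4 were higher in inguinal adipocytes, among them the proliferation marker Mki67 with -2.02, -1.75 and -2.21 in brown and 0.50, 0.85 and -0.47 in inguinal adipocytes (4.88-fold, adjusted p = 0.0172). That count was 5 without inguinal replicate 3, 1 without brown replicate 1 and 0 without brown replicate 3 or inguinal replicate 1 or 2.

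The depot difference in adipocytes was set beside that in the SVF, where 366 genes (1.90%) were higher in brown and 92 (0.479%) higher in inguinal fat. Without inguinal SVF replicate 1 these counts were 415 and 130, of which 276 and 52 were among the first. Of the genes higher in brown adipocytes 115 were also higher in brown SVF, 9.46% of the adipocyte calls and 31.4% of the SVF calls. Of those higher in inguinal adipocytes 40 were also higher in inguinal SVF, 3.57% and 43.5%, and 34 were higher in brown SVF. In the SVF Zic1 had 0.95, 1.52 and 1.20 in brown against -6.29, -3.68 and -7.19 in inguinal fat, and Hoxc9 had -5.60, -4.99 and -4.02 against 1.93, 1.46 and 0.46, without overlap. The interaction, which tests whether the depot difference itself differed between fractions, passed for 25 genes with a larger brown minus inguinal difference in adipocytes (0.130%) and 140 with a smaller one (0.729%). Without inguinal SVF replicate 1 there were 30 and 206, and 17 and 129 genes were shared. Without inguinal adipocyte replicate 3 they were 80 and 291. Of the groups entering the interaction, only the inguinal adipocyte arrays had a software version, slides and scan days of their own. These therefore cannot be told apart from the interaction.

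Contractile genes had opposite depot differences in the fractions. Of the 12 mural and smooth muscle genes 8 were higher in brown SVF and 8 had a smaller difference in adipocytes by the interaction test. Calponin, Cnn1, had -0.89, -2.51 and -0.72 in brown and 1.86, 1.61 and 1.62 in inguinal adipocytes, a difference of -3.07, whereas in the SVF the difference was 3.60 (interaction -6.67 ± 0.85, adjusted p = 0.000927). Acta2 (-3.04 in adipocytes, 2.83 in the SVF), the cardiac actin gene Actc1 (-2.86 and 2.97) and the smooth muscle myosin Myh11 (-2.11 and 2.99) did the same. Sncg was higher in inguinal adipocytes and in brown SVF (-3.41 and 2.02, interaction adjusted p = 0.000123). Tbx1 had -2.44, -1.81 and -1.59 in brown and -2.16, -1.45 and -0.12 in inguinal SVF, which overlap, and its interaction (adjusted p = 0.000649) rests on brown adipocyte signal that was not well above background. Entpd4, a Golgi and lysosome nucleotidase, rose in brown adipocytes (2.18) with -0.38 in the SVF (interaction 2.57 ± 0.42, adjusted p = 0.00718), and Kng1 had 5.46 and -1.55 (adjusted p = 0.0109). Within 1 scanner model the interactions of Cnn1, Acta2, Actc1, Myh11 and Sncg passed (adjusted p up to 0.0154), whereas those of Entpd4 and Kng1 did not (0.0768 for both). None of the chain genes passed the interaction test, so that their difference was not shown to differ between fractions.

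**Figure D5:**
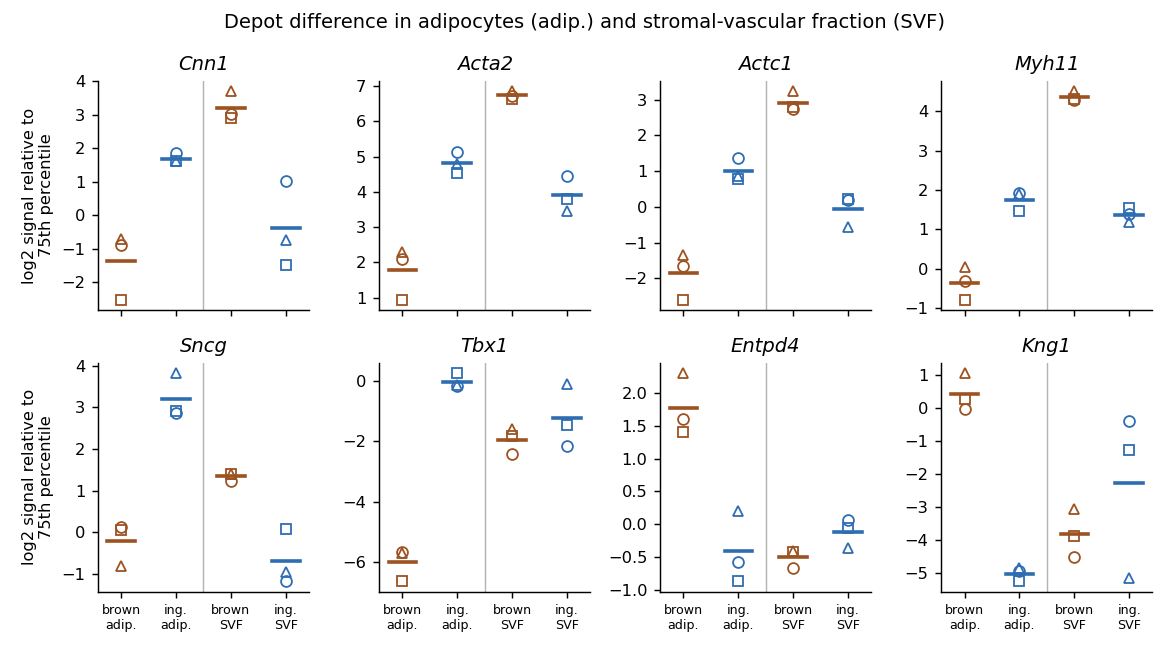
The level (log2 signal over the array's 75th percentile) of 8 genes is shown on each array of the brown and inguinal adipocyte and SVF groups, with a symbol for each replicate and a bar at the group mean. Cnn1, Acta2, Actc1 and Myh11 are lower in brown than inguinal adipocytes (differences of -3.07 to -2.11) and higher in brown than inguinal SVF (2.83 to 3.60).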

How the data were processed

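The RNA of 18 fat fractions was hybridised to 1-colour Agilent arrays, and 3 brown and 3 inguinal adipocyte arrays were compared, grouped by their titles. Per the file headers, the deposited spot intensity was background-subtracted by the authors with Feature Extraction, version 10.5.1.1 for brown adipocytes and all SVF arrays and 9.5.3.1 for inguinal adipocytes. The authors' deposited value table, on a log2 scale per its values, served as an alternative only. Its normalization is not given in the sources used here, and 4 of its 18 columns ranked nearest to the array of their own replicate number, although all 18 ranked nearest to an array of their own group.

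Control and outlier spots were left out, intensity was divided by the 75th percentile of each array and log2 was taken. Of 41174 probes, 28595 well above background on all 3 arrays of some group were kept, and the brightest stood for each of 19217 genes. Names came through RefSeq accessions (24375 probes), symbols (6301) or synonyms (2426), and otherwise from the array (8072). limma 3.58.1 in R 4.3.3 fitted 6 group means with 12 residual degrees of freedom, two-sided, with Benjamini-Hochberg adjustment over all genes and a threshold of 0.05. A gene not well above background on any array of a group has a lower bound in place of a fold. The number of arrays limits the precision. The procedure was tested on simulated data.

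Named genes include the 12 largest differences and the 5 largest bounds per direction. These have an adjusted p under 0.05, groups that do not overlap and signal on all arrays of the higher group. The others are the 5 largest interactions per direction, up to 4 called genes per list and direction and a set followed whatever its values. For list genes only the adjusted p was required, and for interactions that of the interaction and signal on all arrays of the 4 groups. Otop1, Pank1, Acot11, Mest, Cd79b, Atp5k, Uqcrc1 and Ndufa11 were named after their values were seen. The members and lists were chosen with earlier results of these data known. Tables were made with Python 3.11.15 and pandas 2.3.3 and figures with matplotlib 3.10.9. Alternatives changed the background correction, scaling, filter, probe choice, arrays, weights, blocks and values, and the scanner block was added after the data were seen. Some genes that the rule would name are not reported here.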

Additional observations from a re-analysis of the deposited data

Results flagged for a closer look

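For 14 genes the test of the difference itself found that the depot difference in adipocytes was unlike that in the SVF (interaction term in limma, over all 18 arrays, 3 arrays a group). Values are log2 interactions, brown minus inguinal in adipocytes less the same in the SVF. Among these groups only the inguinal adipocytes had another software version and other slides and scan days, which cannot be told apart from the interactions.

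The contrast was larger in adipocytes for Kng1 (7.01 ± 1.21 SE, adjusted p = 0.0109), Rnf182 (5.01 ± 1.10, adjusted p = 0.0461), Tmem25 (4.52 ± 0.90, adjusted p = 0.0274) and Entpd4 (2.57 ± 0.42, adjusted p = 0.00718). It was also larger for Fastkd1, a regulator of mitochondrial RNA (2.13, adjusted p = 0.032), Rpa3, a subunit of replication protein A (2.05, adjusted p = 0.0149), the collagen gene Col27a1 (1.99, adjusted p = 0.0278) and the mitochondrial chaperonin Hspe1 (1.98, adjusted p = 0.0485). Each of the 8 had a difference in brown adipocytes above 0, and the SVF differences were -1.55 for Kng1 and 0.56 for Col27a1, with the other 6 between. Without inguinal SVF replicate 1 the values were 4.17 for Rnf182 (adjusted p = 0.0631) and 1.99 for Hspe1 (adjusted p = 0.0648).

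The contrast was smaller in adipocytes for the contractile genes Cnn1 (-6.67 ± 0.85, adjusted p = 0.000927), Acta2 (-5.87 ± 0.64, adjusted p = 0.00037), Actc1 (-5.84 ± 0.76, adjusted p = 0.00107) and Myh11 (-5.10 ± 0.49, adjusted p = 0.000123). The same held for Sncg (-5.43 ± 0.52, adjusted p = 0.000123) and Tbx1 (-5.28 ± 0.65, adjusted p = 0.000649). Except Tbx1, these were higher in inguinal adipocytes and in brown SVF. In brown adipocytes Tbx1, and in inguinal ones Rnf182, were not well above background on any array, and Kng1 and Tmem25 were so on 2 and 1 inguinal arrays, so their interactions rest in part on background signal. With the scanner model as a block the interactions of Rpa3, the contractile genes, Sncg and Tbx1 passed and those of the other 7 did not.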

How the results depend on the processing

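Over 225 results (genes and interactions) and 4958 values under alternatives, 4068 kept direction and side of the threshold, 821 were no longer past it, 27 were newly past it and 42 changed sign. Among genes with the largest differences, bounds or interactions and those followed, 37 of 50 called kept their call whichever library was left out and 4 did so under every alternative.

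With normexp, 360 genes were higher in brown and 294 in inguinal adipocytes, and 3 interactions were larger and 47 smaller. That fit took mean spot signals for inguinal adipocytes and median spot signals for brown adipocytes and the SVF. Normexp on median signals with outlying backgrounds replaced, chosen after seeing the data, gave 722, 585, 10 and 85. The scanner model as a block, also chosen after seeing the data, gave 14, 54, 9 and 78. The fit on only the arrays compared gave 559, 734, 3 and 67, array weights 3901, 2781, 255 and 601. Probes well above background on all arrays compared gave 658 higher in inguinal, of 13393 tested, and 43 interactions were larger in the authors' deposited table. The cause was not tested, except that fewer genes or arrays entered some fits. Leaving out 1 library gave 341 to 2027 genes higher in brown, 402 to 1594 higher in inguinal adipocytes, 6 to 81 larger and 74 to 291 smaller interactions.

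With the replicate block the counts were 1448, 1110, 30 and 130. Same-numbered arrays correlated in their deviations by 0.080, 0.117 and 0.167, and differently numbered ones by -0.203 to 0.159, most of them below 0. The main fit did not pair arrays by number, and these values do not settle whether the numbers pair them.

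Calls of Abcd3, Acat1, Cox7a1, Cpt1b, Hspd1, Lck, Mb, Mki67, Oxct1 and Ptx3 were lost without inguinal replicate 1 or 2 or brown replicate 1 or 3, with adjusted p up to 0.15 (Abcd3). Acly, Emcn and Hspb1 also lost theirs without brown replicate 2 (up to 0.136). Adrb1, Ccl21c and H2-Ab1 lost theirs without inguinal replicate 1 (up to 0.0547), Has1 and Pdgfra without inguinal replicate 1 or 2 (up to 0.0753) and Fads3 without brown replicate 3 (0.0596). Dlk1 and Lep lost theirs whichever adipocyte array was left out (up to 0.174) and Nrip1 without brown replicate 3 or any inguinal replicate (0.109). Otop1 (up to 0.0854), Cabcoco1 and Hoxa5 lost theirs without inguinal replicate 1 or brown replicate 1 or 3, and Ccl2 without brown replicate 1 or inguinal replicate 1 or 2 (up to 0.0666).

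Sign changes with normexp were Cabcoco1 -0.17, Arhgdig -0.24, Tnni1 -0.48, Cacng1 -0.48, Dsp -0.89, Nr4a3 -0.52, Adipoq 0.20 and Adrb3 -0.88, the first 6 of them dim genes called with 75th percentile scaling. The others were of genes that did not pass. Elovl3 had 0.024 with median scaling, 0.70 with array weights and 0.052 with the added normexp, and -0.51 to 0.84 with 1 library left out. Adipoq had 0.25 with array weights, 0.046 with slides as a random block and -0.41 to 0.28 with 1 library left out. Plin1 had -0.030 with quantile normalization and in the authors' deposited table, -0.00034 with the added normexp and -0.40 to 0.82 with 1 library left out. Fabp4 had -0.24 with quantile normalization, -0.056 with the mean of its probes, -0.14 in the authors' deposited table and -0.20 to 0.38 with 1 library left out. Adrb3 had -0.15 in the authors' deposited table and -0.42 to 0.94 with 1 library left out. Lhx8 had 0.51 with array weights and -0.67 to 0.70 with 1 library left out, Cd79a 0.10 with the added normexp, and Acta1 0.39 with array weights and -0.94 to 0.34 with 1 library left out.

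With the scanner model as a block the values were -0.15 for Pparg, -1.14 for Plin1, -0.12 for Fabp4, -1.54 for Adrb3, 0.054 for Tmem26, 0.32 for Cd79a and 0.30 for Cd79b.

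Dim genes limit what can be said: a signal near background gives only a bound. Software, slide and scan day cannot be told apart from depot in the adipocyte comparison, nor from the interaction. With slides as a random block 1037 and 973 genes were higher in brown and in inguinal adipocytes, and with scan days 960 and 874.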
